A study of Homo sapiens with 48 samples.

Results

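The genes described here were the 38 nuclear genes that encode subunits of respiratory complexes II, III and IV and of the ATP synthase (complex V). They were found as the rows of the deposited gene count table whose Ensembl identifiers map to a fixed list of symbols, and they made up 38 of the 48898 identifiers in that table. The list held 4 subunits of complex II (SDHA to SDHD), 9 of complex III, 10 of complex IV and 15 of complex V. All 38 were expressed above the filter on low counts in every model, and the smallest count of any of them in any library was 137, so none was lost to that filter.

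The study asked how mitofusins, the outer-membrane proteins that fuse mitochondria, bear on cellular senescence induced by doxorubicin, a DNA-damaging drug. Poly(A)-selected RNA was sequenced from 2 human lines, the fetal lung fibroblast line IMR-90 and the melanoma line SK-MEL-103. In both lines, cells were transfected with siRNA the day before exposure to 200 nM doxorubicin for 48 h, and RNA was taken on day 7. The siRNAs were a control, siMFN1, siMFN2, siMFN1 with siMFN2, or siMAVS (against the outer-membrane signalling adaptor MAVS), and cells given control siRNA without doxorubicin were the proliferating reference. In a further experiment, IMR-90 cells were given doxorubicin in the same way. From day 7 they were kept for 48 h in DMSO, 20 µM MFI8 or 10 µM BI (compounds known here only by these names), beside proliferating cells in DMSO, with RNA on day 9. Each of the 16 groups had 3 libraries, 48 in all. Every siRNA knockdown and both compound groups were made in doxorubicin-treated cells, so no group shows a knockdown or a compound in proliferating cells. The labels do not say that the 3 libraries of a group came from separate cultures, and the p-values therefore measure the spread between these libraries, which may be technical.

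Oxidative phosphorylation passes electrons from complexes I and II through ubiquinone to complex III, through cytochrome c to complex IV, and from there to oxygen. Complexes III and IV pump protons, and the ATP synthase uses the proton gradient to make ATP. Complex II, which is also succinate dehydrogenase of the citric acid cycle, is encoded wholly in the nucleus, whereas complexes III, IV and V also hold subunits encoded by mitochondrial DNA.

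Total counts per library ran from 15206115 to 79204217. The targeted genes fell under their siRNAs in both lines: under siMFN1 the log2 fold change of MFN1 was -2.75 in IMR-90 and -1.57 in SK-MEL-103, under siMFN2 that of MFN2 was -3.20 and -2.29, and under siMAVS that of MAVS was -1.52 and -1.41. CDKN1A, the cell cycle inhibitor p21, rose with doxorubicin by 2.65 in IMR-90 on day 7, by 2.20 on day 9 and by 1.95 in SK-MEL-103. Summed over 8 fibroblast markers, IMR-90 libraries held 5944 to 52888 CPM (counts relative to the scaled library total) and SK-MEL-103 libraries 23.4 to 304. In proliferating SK-MEL-103 cells the melanocyte markers rested on SOX10 (493 CPM). TYR stood at 0 and MLANA, PMEL and TYRP1 at 0.30 CPM or less, so the pigment genes of that lineage were at or near 0. The 6 epithelial, endothelial and leukocyte markers summed to at most 5.63 CPM in any library.

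Sequences near the start sites are shown for 7 members that the comparisons below describe. They carry 2 sets of letters that recur in this gene group, those bound by NRF1, a factor known for its sites in respiratory chain genes, and those bound by ETS-family factors. Of the 38 members, 30 matched the RefSeq promoter table (GRCh38.p14, 250 bases before to 50 after a start). The other members, SDHC, UQCRB, CYC1, COX6C, ATP5F1B, ATP5F1D, ATP5MC3 and ATP5MF, had no entry used here. Capitals mark the matching letters, each stretch reads 5′ to 3′ on the gene's strand, and the stretches are cut to 30 bases or fewer. Start sites are those of RefSeq. All stretches shown except the ETS stretch of UQCR11 overlap untranslated exon parts annotated in GENCODE 29, so they do not lie before every annotated start.
SDHA, NRF1 letters, chr5:218291-218319, plus strand: ccggtgtggtGCGCAGGCGCagtctgcgc
SDHD, NRF1 letters, chr11:112086753-112086782, plus strand: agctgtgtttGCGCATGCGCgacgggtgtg
UQCRFS1, NRF1 letters, chr19:29213163-29213192, minus strand: gcgcctcctcGCGCCTGCGCcgtggttgga
UQCR11, NRF1 letters, chr19:1605472-1605501, minus strand: ccctccccgcGCGCGTGCGCgccgcggccg
UQCR11, ETS letters, chr19:1605561-1605590, minus strand: tccaaccctcgCCGGAAGTtactgtaagtg
COX8A, ETS letters, chr11:63974590-63974619, plus strand: ccagctccagaACTTCCGGccagcgcagcc
ATP5F1A, ETS letters, chr18:46098327-46098356, minus strand: cgaggggcagtACTTCCGGgtcaggtgggc
ATP5F1C, NRF1 letters, chr10:7788145-7788174, plus strand: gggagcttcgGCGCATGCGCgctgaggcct
The NRF1 letters searched were GCGC, any base, then TGCGC, and the ETS letters were CCGGAAGT, each on both strands. Where 2 sets of letters share bases, each was counted. SDHA carried the NRF1 letters 4 times, with first bases 166, 117, 68 and 19 bases before the start site, and the stretch shown is the nearest of them. UQCR11 carried both sets, and so did SDHD, whose ETS letters began 78 bases before the start.

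The NRF1 letters were present in 9 of the 30 members (30.0%), compared with 6.98% of all 27305 genes in the promoter table and 9.66% of its 15842 protein-coding genes. The members were UQCRC1, ATP5ME, SDHA, ATP5F1C, SDHD, UQCR11, UQCRFS1, ATP5PO and UQCR10. The ETS letters were also present in 9 of 30 (30.0%, against 4.95% of all genes and 6.97% of protein-coding genes), in UQCRH, COX5B, UQCRQ, COX8A, SDHD, ATP5PD, ATP5F1A, UQCR11 and ATP5PF. Among 32 nuclear-encoded complex I subunits the shares were 18.8% for NRF1 and 6.25% for ETS. The letters of YY1, AAGATGGC, stood in 16.7% of the members and 3.52% of all genes, and those of the E-box, CACGTG, in 13.3% and 8.77%. The SP1 letters GGGCGG stood in 60.0% of the members, 48.3% of all genes and 64.3% of protein-coding genes. A match describes these letters in this window and is not evidence of a bound site.

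In proliferating IMR-90 cells the members summed to 4117 ± 418 CPM (SD, n = 3), and in proliferating SK-MEL-103 cells to 4631 ± 309. Levels between members differed widely per length of annotated exon. That length joins all annotated exons of a gene rather than those of 1 transcript. It was 507 bases for COX8A and 8383 for SDHA, so the order depends in part on the annotation. ATP5F1B, the catalytic beta subunit of the ATP synthase (chr12:56638175-56646068, minus strand, GRCh38), was the highest, at 295 CPM per kilobase of annotated exon in IMR-90 and 293 in SK-MEL-103. It was followed in IMR-90 by COX8A, a small supernumerary subunit of complex IV, at 138, and UQCRH, the hinge subunit of complex III, at 80.6. SDHA, the flavoprotein subunit of complex II, was the lowest, at 1.92 and 1.69. Its value is uncertain: 3 named copies of SDHA held 220% of its own counts over all libraries, and how reads matching several places were counted is not given in the sources used here. For COX8A, 34.5% of the exon length is shared with another gene on the same strand. Across the 16 groups the mean of a member varied from 1.21-fold (SDHC, the larger membrane anchor of complex II) to 2.56-fold (COX7C, a small subunit of complex IV).

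Doxorubicin lowered 13 of the 38 members in IMR-90 on day 7 and raised 1, compared with the proliferating group given the same control siRNA (edgeR's quasi-likelihood test, Benjamini-Hochberg adjusted over all 19077 genes tested). Of all those genes, 23.6% were called lower and 25.9% higher, and the median log2 fold change was -0.17 over the members and 0.09 over all genes. The lowest called members were CYC1, cytochrome c1 of complex III, ATP5MC2, a gene for the proton-carrying c subunit of the ATP synthase, SDHA, ATP5F1A, the alpha subunit of the ATP synthase, and UQCRFS1, the Rieske iron-sulfur protein of complex III. By complex, 3 of 4 members of complex II were lower, 2 of 9 of complex III, 2 of 10 of complex IV and 6 of 15 of complex V. In bulk RNA, fewer cells of a kind and less RNA per cell cannot be told apart. The fibroblast markers summed to 7100 to 21591 CPM in these proliferating and 25406 to 40174 in these treated libraries (3 of 8 called higher). Proliferating replicate 2 stood apart, with 21591 CPM of these markers where the others had 7470 and 7100, the lowest member sum (3657 CPM, where the others had 4475 and 4220) and the highest mitochondrial share (1.35%). Without that library 14 members were called in either direction, as many as with it, and the part of the markers in the result was not tested.

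CYC1 (chr8:144095027-144097525, plus strand) stood at 138, 104 and 128 CPM in the 3 proliferating IMR-90 libraries and at 65.0, 64.1 and 79.2 with doxorubicin. The groups did not overlap, and the level fell to 0.575 of the proliferating level (log2 fold change -0.80, SE 0.12, edgeR adjusted p = 9.7e-05). ATP5MC2 read 159, 125 and 163 CPM before and 97.4, 90.3 and 71.4 CPM after doxorubicin, with every treated library below every proliferating one (log2 fold change -0.75, SE 0.13, edgeR adjusted p = 0.00032). For SDHA the 3 proliferating libraries stood at 16.5, 15.2 and 16.5 CPM and the treated ones at 11.1, 9.66 and 11.1. These groups were separate too (log2 fold change -0.57, SE 0.13, edgeR adjusted p = 0.0020). The 3 SDHA copies summed to 33.6 ± 2.71 CPM in proliferating and 27.7 ± 6.19 in treated IMR-90 libraries.

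UQCRFS1 fell from 105, 82.4 and 102 CPM to 62.8, 65.1 and 66.0, and ATP5F1A from 497, 406 and 465 to 291, 319 and 296 (log2 fold changes -0.55 and -0.56, edgeR adjusted p = 0.0018 and 0.00031). ATP5F1B, at 767, 596 and 689 CPM before and 512, 551 and 555 after, fell by 0.31 on the log2 scale (edgeR adjusted p = 0.031), with no overlap. The single member called higher was UQCR10, a small subunit of complex III, at 55.9, 47.4 and 53.2 CPM in proliferating and 70.6, 55.7 and 61.2 in treated libraries. Those groups overlapped (log2 fold change 0.29, SE 0.11, edgeR adjusted p = 0.036), and the call was lost under 6 of 13 other settings. In all, 14 members lay wholly below the proliferating range and 0 wholly above it, compared with 27.2% and 28.5% of all genes. Members that were not called included COX4I1, the largest nuclear subunit of complex IV, at 203, 170 and 191 CPM in proliferating and 215, 195 and 191 in treated libraries.

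In the separate day 9 experiment, which shares no library with the first, doxorubicin lowered 17 members of IMR-90 cells in DMSO and raised none (0 of 38). Over all 19056 genes tested, 26.2% were lower and 28.3% higher. The members' median was -0.33 and that of all genes 0.11. DESeq2 called 0 members higher as well. An unadjusted p below 0.05 was found for 19 members (50%), where 60.1% of all genes had such a p. ATP5MC2 was the lowest, at 151, 162 and 130 CPM in proliferating and 70.4, 87.0 and 70.5 in treated libraries (log2 fold change -0.95, SE 0.12, edgeR adjusted p = 7.1e-05). Next were CYC1, from 130, 135 and 119 CPM to 66.6, 74.4 and 61.2 (log2 fold change -0.92), and SDHB, the iron-sulfur subunit of complex II, from 79.7, 79.1 and 74.9 to 44.6, 50.1 and 44.3 (log2 fold change -0.74, edgeR adjusted p = 1.4e-05). None of these 3 genes had overlapping groups. SDHD, the smaller membrane anchor of complex II, fell by 0.62 and ATP5F1C, the central rotor subunit gamma, by 0.59. Altogether 18 members lay below the proliferating range and 0 above, against 30.7% and 31.7% of all genes. Fibroblast markers summed to 5944 to 7506 CPM in proliferating and 13872 to 26430 in treated libraries, with 7 of 8 called higher. Treated replicate 2 stood apart, with a member sum of 3699 CPM where the other treated libraries had 3058 and 3052. Its mitochondrial share was 2.482%, where theirs were 4.085% and 4.568%. Without that library 21 members were called in either direction, and the share of all genes called then is not given here.

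In SK-MEL-103 doxorubicin lowered 30 of the 38 members and raised 1, while 29.9% of the 17945 genes tested were lower and 29.4% higher. The median log2 fold change was -0.42 over the members and 0.03 over all genes. Lower calls covered 12 of 15 subunits of complex V (median -0.58), 9 of 10 of complex IV (-0.32), 7 of 9 of complex III (-0.39) and 2 of 4 of complex II (-0.40). COX5A, which sits on the matrix side of complex IV (chr15:74919791-74938168, minus strand), had the largest fall. It stood at 100, 111 and 94.5 CPM in proliferating and at 53.5, 54.0 and 58.1 CPM in treated libraries, with no overlap (log2 fold change -0.98, SE 0.12, edgeR adjusted p = 1.7e-06).

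SDHB read 68.8, 87.7 and 73.5 CPM before and 42.9, 40.9 and 44.7 after doxorubicin in SK-MEL-103 (log2 fold change -0.93, SE 0.11, edgeR adjusted p = 1.3e-06). ATP5F1B went from 704, 706 and 628 CPM to 404, 367 and 423 (log2 fold change -0.87, SE 0.12, edgeR adjusted p = 6.1e-06). Both genes had separate groups. ATP5MC1, another c subunit gene, fell from 45.9, 75.7 and 54.8 CPM to 37.4, 34.2 and 35.2 (log2 fold change -0.82), and ATP5MF, a small membrane subunit, from 48.8, 52.0 and 58.3 to 34.4, 29.9 and 32.4 (log2 fold change -0.81). Of the ATP5MF exon length, 8.60% overlaps PTCD1 and its readthrough with ATP5MF on the same strand.

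UQCR11, the smallest subunit of complex III (chr19:1597172-1605490, minus strand), was the member called higher in SK-MEL-103. It stood at 13.4, 15.2 and 13.6 CPM in proliferating and 18.2, 18.5 and 17.2 in treated libraries, without overlap (log2 fold change 0.26, SE 0.10, edgeR adjusted p = 0.043), and the call was lost under 7 of 12 other settings. SDHA was also separate and higher with doxorubicin there, at 18.6, 13.4 and 10.5 CPM before and 19.7, 22.1 and 19.4 after, but missed the threshold (log2 fold change 0.42, SE 0.18, edgeR adjusted p = 0.055). Its 3 copies summed to 36.5 ± 4.33 and 35.5 ± 8.51 CPM. In total 23 members lay below and 2 above the proliferating range, against 27% and 35.7% of all genes. Fibroblast markers summed to 23.4 to 78.0 CPM in proliferating and 213 to 251 in treated SK-MEL-103 libraries (4 of 5 tested called higher), with DCN and THY1 at 0 in the proliferating ones. The part of these RNAs in the change of the members was not tested.

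**Figure D1:**
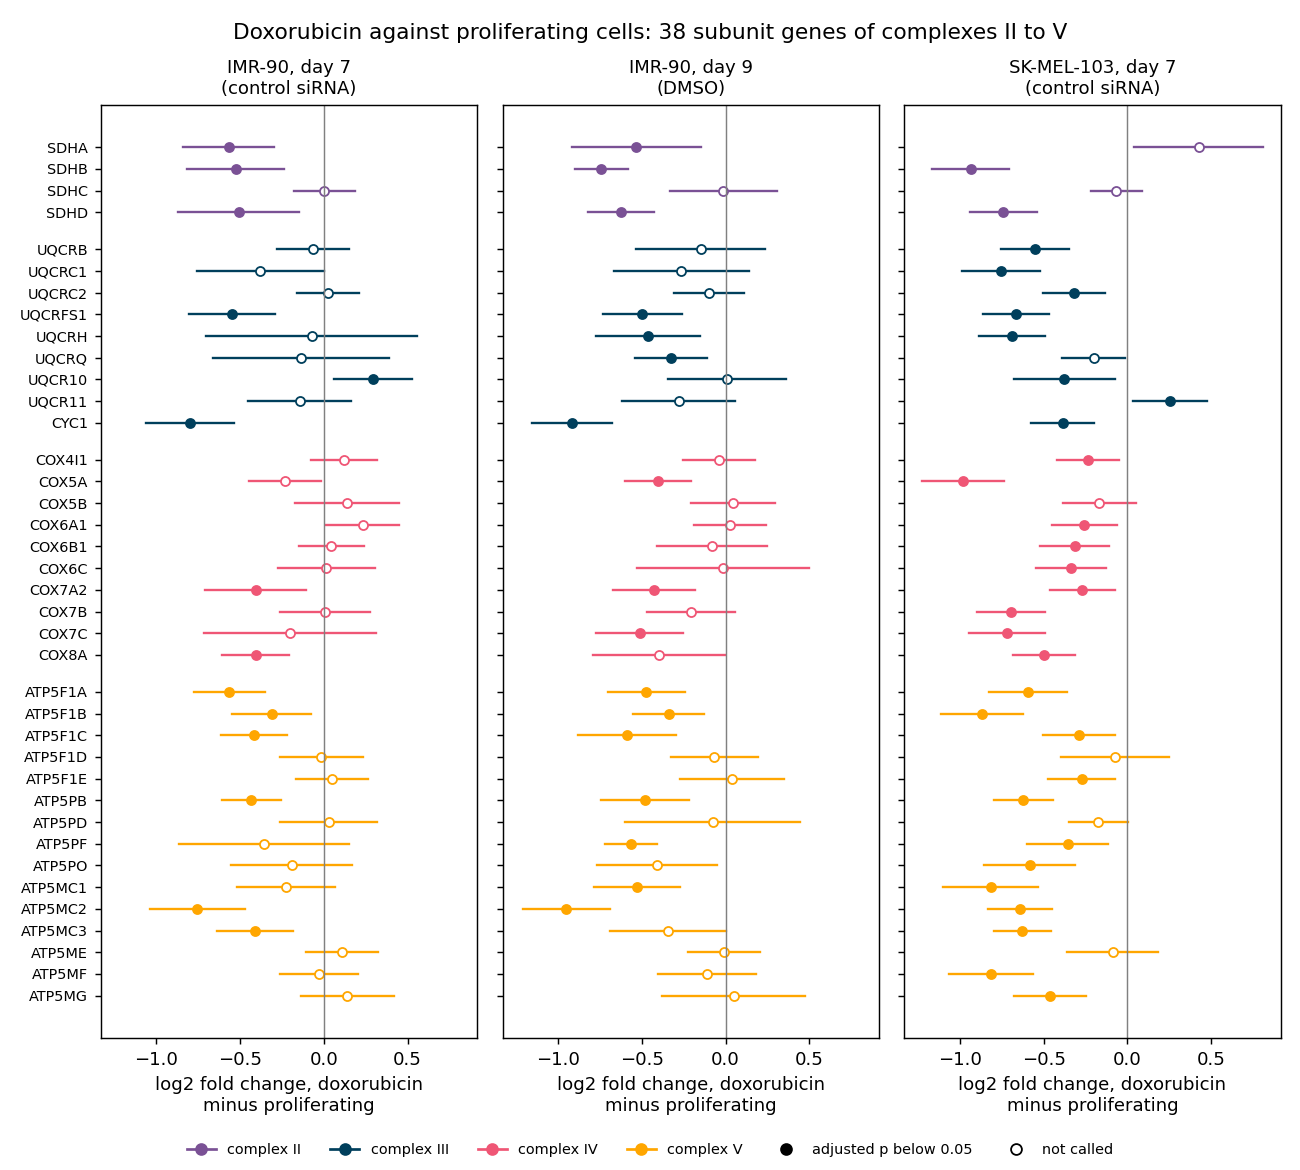
Log2 fold change of each of the 38 subunit genes (rows, by complex) in the 3 comparisons of doxorubicin-treated with proliferating cells, with 95% intervals. Filled points have an adjusted p below 0.05. Filled points left of 0 number 30 in SK-MEL-103, 13 in IMR-90 on day 7 and 17 on day 9.

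These 3 comparisons share no libraries. Of the 13 members lower in IMR-90 on day 7, 11 (84.6%) were also lower on day 9, where they made up 64.7% of the 17. With SK-MEL-103, the day 7 list shared 12 members (92.3% of its own, 40.0% of the 30) and the day 9 list 15 (88.2% and 50.0%). Of the 16202 genes tested in all 3, the same shares over all genes were 85.6% and 77.1% for day 7 and day 9, 69.2% and 59.5% for day 7 and SK-MEL-103, and 69.8% and 66.6% for day 9 and SK-MEL-103. Lower in all 3 were 10 members (26.3%) and 17.3% of those genes, and lower in at least 1 were 32 members (84.2%) and 43.1%. The 10 members were SDHB and SDHD of complex II, CYC1 and UQCRFS1 of complex III, COX7A2 of complex IV, and ATP5F1A, ATP5F1B, ATP5F1C, ATP5MC2 and ATP5PB of complex V. They include both nuclear-encoded redox subunits of complex III, the alpha and beta subunits of the ATP synthase head, and the central rotor subunit gamma. In addition, ATP5PB is the b subunit of the peripheral stalk that holds the head in place. A further 6 members were lower in none: SDHC, UQCR11, COX5B, and the ATP synthase subunits ATP5F1D (delta), ATP5PD and ATP5ME. Their log2 fold changes ranged from -0.28 to 0.26. Of the ATP5ME exon length, 61.6% lies opposite exons of MYL5, and the strand setting of the counting is not given in the sources used here.

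The 3 ATP5MC genes encode the same mature c subunit with different targeting peptides. ATP5MC2 was lower in all 3 comparisons (-0.75, -0.95 and -0.64). ATP5MC1 was called in 2 of them, at -0.53 in IMR-90 on day 9 and -0.82 in SK-MEL-103, with -0.22 on day 7. ATP5MC3 was lower by 0.41 in IMR-90 on day 7 and by 0.63 in SK-MEL-103, and stood at -0.34 on day 9 (edgeR adjusted p = 0.085). The peripheral stalk genes ranged from ATP5PB, lower in all 3 (-0.43, -0.48 and -0.62), to ATP5PD, called in none (0.03, -0.08 and -0.17). In complex IV, whose catalytic core is encoded by mitochondrial DNA, COX7A2 fell in all 3 (-0.40, -0.43 and -0.27) and COX5B in none (0.14, 0.05 and -0.17). In complex III the core proteins UQCRC1 and UQCRC2, which face the matrix, were lower in SK-MEL-103 (-0.75 and -0.32) and not called in IMR-90 (-0.38 and 0.02 on day 7).

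The small subunits without catalytic centres differed among themselves. In complex III, UQCRH fell by 0.46 in IMR-90 on day 9 and by 0.69 in SK-MEL-103, UQCRQ by 0.32 on day 9, and UQCRB by 0.55 in SK-MEL-103. In complex IV, COX7C fell by 0.51 on day 9 and by 0.72 in SK-MEL-103, COX7B by 0.69 in SK-MEL-103, and COX8A by 0.41 on day 7 and 0.50 in SK-MEL-103. COX6C, COX6B1, COX6A1 and COX4I1 were called lower in SK-MEL-103, where they had the smaller changes of -0.34, -0.31, -0.26 and -0.24, and in no IMR-90 comparison. In complex V the stalk subunits ATP5PF (-0.56 on day 9 and -0.36 in SK-MEL-103) and ATP5PO (-0.58 in SK-MEL-103) were lower, as were ATP5MG (-0.46) and ATP5F1E (-0.27) in SK-MEL-103.

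**Figure D2:**
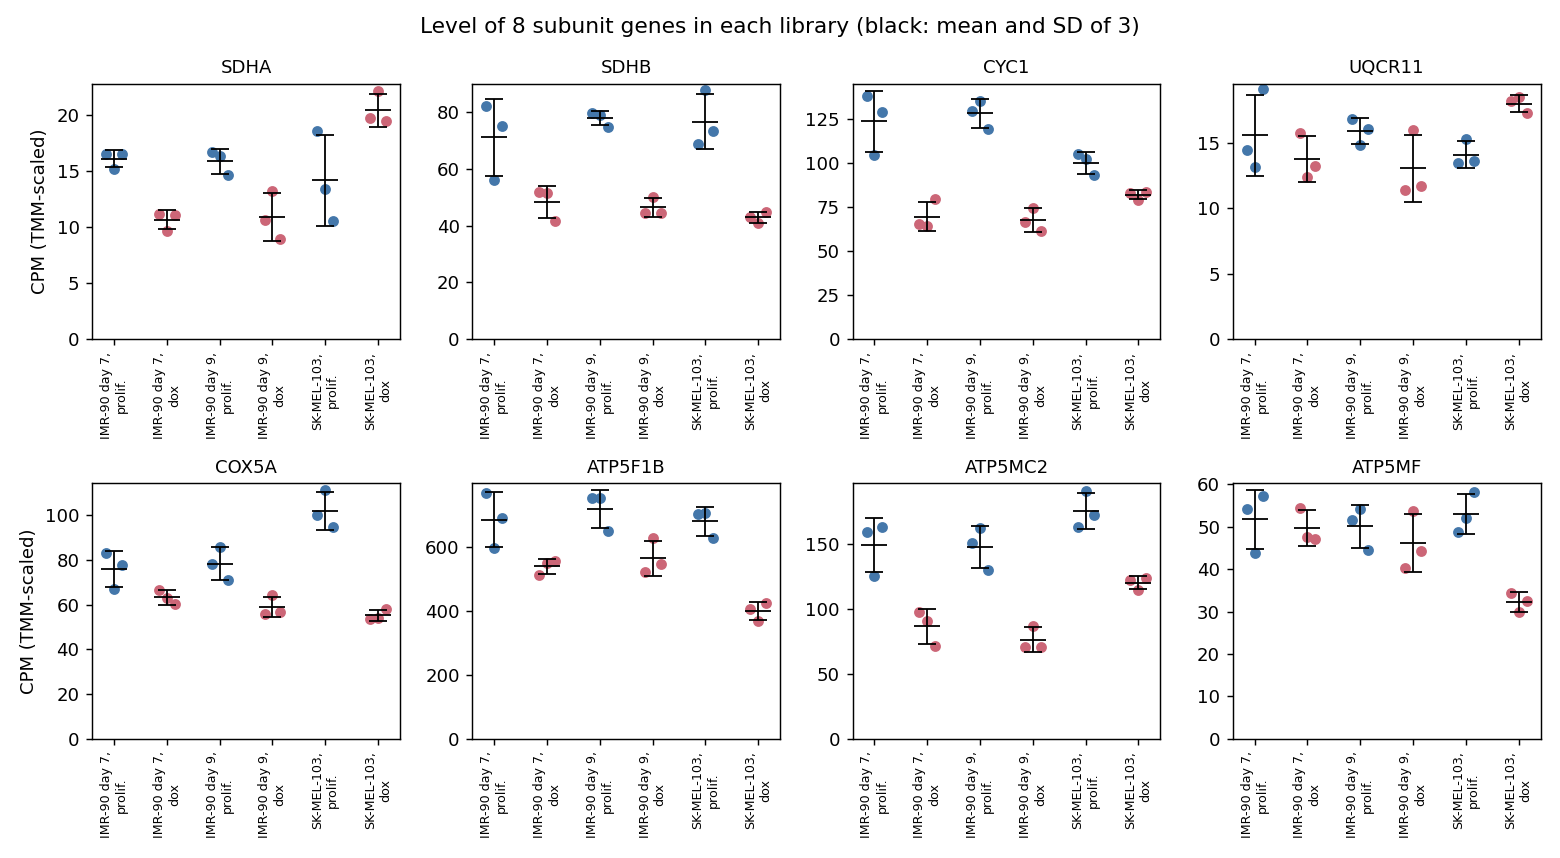
Level of 8 subunit genes in each of the 18 libraries of the doxorubicin comparisons (TMM-scaled CPM, linear axis from 0). Blue points are proliferating and red points treated libraries, and black bars give the mean and SD of 3. SDHA is lower in treated IMR-90 and higher in treated SK-MEL-103 libraries, while CYC1, SDHB and ATP5MC2 are lower in both lines.

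The doxorubicin effect itself differed between the lines for 10 members, as tested by an interaction term over 36 libraries. Of these, 3 were more positive in SK-MEL-103 and 7 more negative, against 13% and 9.33% of all 20892 genes. The lines were separate experiments, so this test cannot tell a difference of line from one of experiment. SDHA had the largest difference (1.09, SE 0.23, edgeR adjusted p = 0.0012), and it kept its call in all 17 other settings tried. CYC1, which fell less in SK-MEL-103, from 105, 102 and 92.9 CPM to 83.1, 78.8 and 83.5, differed by 0.51 (edgeR adjusted p = 0.011), and UQCR11 by 0.49 (edgeR adjusted p = 0.046). ATP5MF (-0.69, edgeR adjusted p = 0.0021), COX5A (-0.66), COX7B, a membrane subunit of complex IV (-0.60), UQCR10 (-0.57) and ATP5MG, a subunit of the ATP synthase membrane part (-0.51), fell more or rose less in SK-MEL-103. The remaining calls were ATP5F1B (-0.46) and COX6A1, the common isoform of subunit 6A of complex IV (-0.39). The split depends on the scaling. It became 1 more positive and 14 more negative with relative log expression (RLE) factors, and 2 and 9 with library totals. RLE factors moved the median difference of all genes from 0.03 to -0.13. The shares of all genes called under these scalings are not given here. Such splits therefore do not show whether members moved more than other genes. Without the low-count filter 1 member was called. Leaving out 1 library gave 5 to 10 calls, with 5 without treated SK-MEL-103 replicate 2, and 6 each without proliferating replicate 2 of SK-MEL-103 or of IMR-90.

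**Figure D3:**
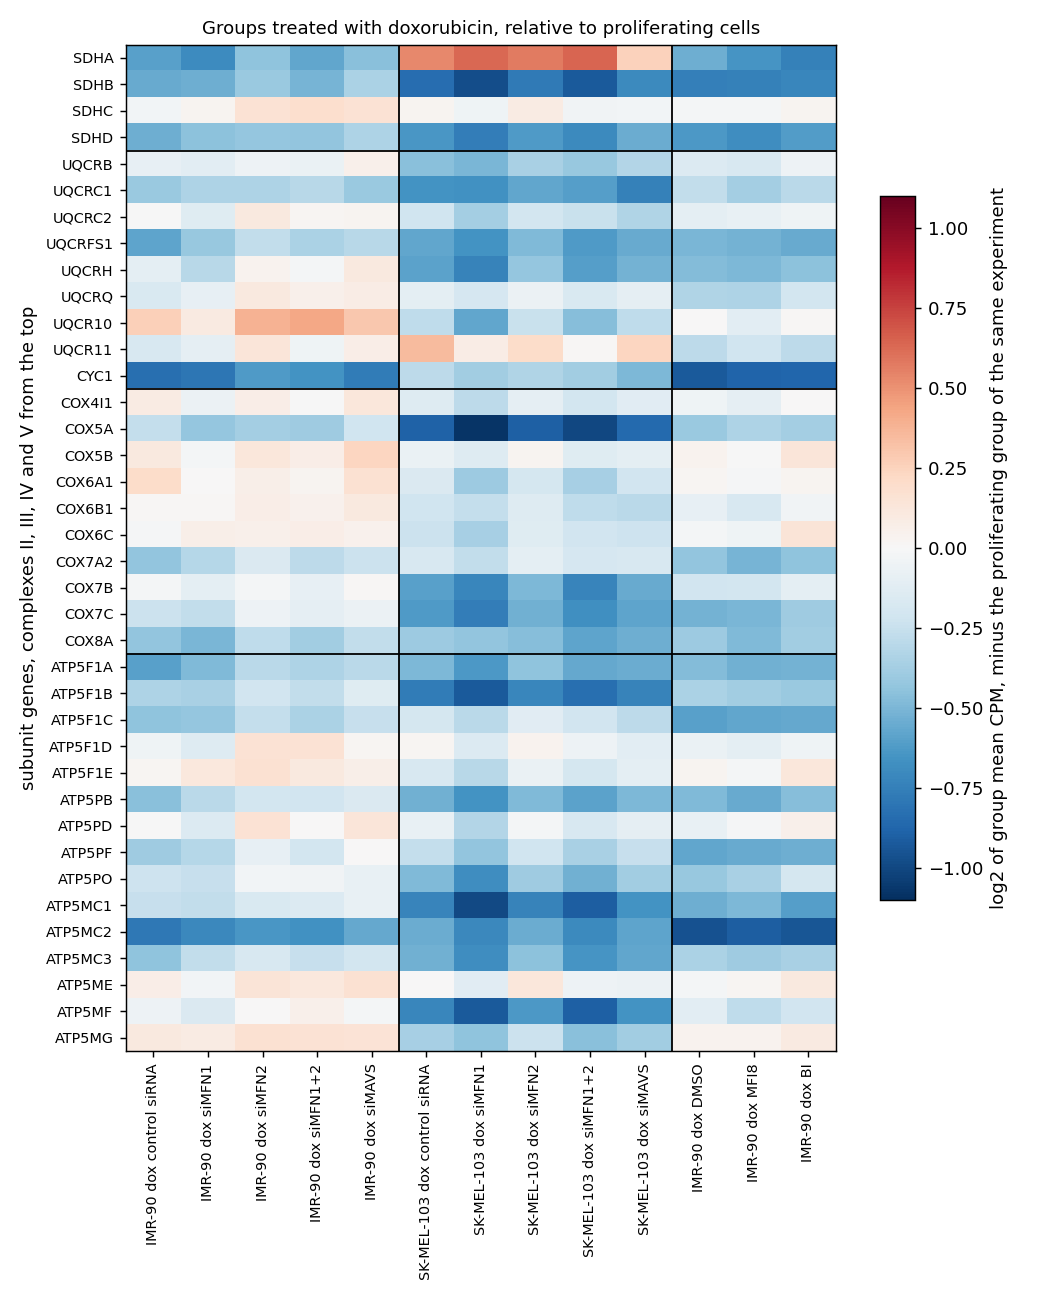
Log2 of the group mean CPM of each subunit gene in the doxorubicin-treated groups, minus the proliferating group of the same experiment (colour). The genes are ordered by complex from II at the top to V at the bottom. SDHA is below 0 in both IMR-90 control columns and above 0 in that of SK-MEL-103, and CYC1 is below 0 in all 3.

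Levels were also set side by side between the lines. Between proliferating cells, 13 members were higher in SK-MEL-103 and 3 higher in IMR-90, against 23.7% and 28.3% of all genes, with a median of 0.12 over the members and -0.04 over all genes. Complex IV supplied 7 of the 13 (median 0.51), and COX6B1, which joins the monomers of complex IV, was the highest. Its 3 proliferating IMR-90 libraries read 80.1, 65.4 and 75.7 CPM and those of SK-MEL-103 136, 166 and 141 (log2 fold change 1.04, SE 0.10, edgeR adjusted p = 4.7e-10). COX7C (0.99), ATP5F1E, the epsilon subunit of the ATP synthase (0.91), UQCRH (0.84) and COX7B (0.84) followed. With RLE factors the split was 16 to 0 and with library totals 23 to 0, so the 3 lower calls do not hold across scalings. Shares of all genes under these scalings are not given here, so the splits say nothing of members relative to other genes. On library totals the median of all genes moved to 0.19. Altogether 12 members lay above and 2 below the IMR-90 range, compared with 24% and 30% of all genes.

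Between doxorubicin-treated cells, 13 members were higher in SK-MEL-103 and 11 lower (29.3% and 31.1% of all genes), and 13 and 11 were without overlap (33.4% and 33.9%). SDHA (0.95, SE 0.17, edgeR adjusted p = 2e-05) and COX6B1 (0.78, edgeR adjusted p = 8e-08) led the higher calls. UQCR10 (-0.68), UQCRB, a small subunit of complex III (-0.66), and ATP5MF (-0.62) led the lower ones. Complex V, with 7 of the 11 lower calls, had a median of -0.21. The split was 10 to 14 with RLE factors and 16 to 5 with library totals, again without the shares of all genes under those scalings. The lines were prepared as separate experiments, so line and experiment cannot be told apart in either level comparison. The same holds for every test of a different response between the lines.

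Under the siRNAs against the mitofusins or MAVS in doxorubicin-treated cells, edgeR with all groups of a line in the model called no member in either line. DESeq2 in IMR-90 and a replicate block in SK-MEL-103 did call members. The 4 siRNA comparisons of a line share its 3 control libraries, so they are described singly. In IMR-90, 0 of 38 members passed under siMFN1 (1.08% of all genes were called), siMFN2 (0.0839%), siMFN1 with siMFN2 (1.01%) and siMAVS (0.204%), by edgeR. At an unadjusted p below 0.05 the counts were 0, 4, 3 and 4 members (0%, 10.5%, 7.89% and 10.5%, where 14%, 11.6%, 14.8% and 12.9% of all genes had such a p), and DESeq2 called 0, 1, 1 and 1 members, where 0.946%, 2.88% and 1.65% of all genes were called higher in the last 3. The 95% intervals of all 38 members lay within 2-fold in each comparison. They lay within 1.5-fold for 36 members under siMFN1, 33 under siMFN2, 34 under both and 34 under siMAVS.

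The member that DESeq2 called in IMR-90 was ATP5PB in all 3 cases. It stood at 128, 125 and 119 CPM with control siRNA, 132, 138 and 148 with siMFN1, 146, 146 and 154 with siMFN2, 145, 146 and 152 with both, and 151, 149 and 159 with siMAVS. Each knockdown group lay above the control range, and the proliferating libraries stood at 181, 157 and 174. By edgeR the log2 differences were 0.25 under siMFN2 (SE 0.08, adjusted p = 0.27), 0.25 under both siRNAs (adjusted p = 0.16) and 0.29 under siMAVS (adjusted p = 0.14). DESeq2's adjusted p was 0.037, 0.017 and 0.0058. ATP5F1A had the next smallest p, with 0.29, 0.25 and 0.28.

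Across the members, log2 differences in IMR-90 ran from -0.20 to 0.16 under siMFN1 (median -0.02), from -0.14 to 0.29 under siMFN2 (0.13), from -0.17 to 0.25 under both (0.09) and from -0.05 to 0.38 under siMAVS (0.13). The medians of all genes lay between -0.01 and 0.01. Positive values were 17, 34, 33 and 36 of 38. Because the 4 share controls, and members of 1 library are not replicates, these counts carry no test. Summed over the members, the control libraries held 3374 ± 153 CPM, the siMFN1 libraries 3374 ± 215, siMFN2 3740 ± 98.1, both siRNAs 3620 ± 141 and siMAVS 3784 ± 165. By library the control sums were 3519, 3390 and 3214 CPM and the siMAVS sums 3622, 3778 and 3952. All siMAVS libraries carry identifiers of the range 19 to 35, whereas replicate 3 of the control and of the other siRNA groups falls in the range 89 to 93. With a term for that range, 0 members were called under siMAVS by edgeR and the median was 0.12. Members lying above the control range numbered 2, 11, 6 and 9 (9.37%, 8.94%, 10.1% and 8.18% of all genes), and 1, 1, 0 and 0 lay below it (9.44%, 8.49%, 10.1% and 7.77%).

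In SK-MEL-103, too, 0 of 38 members were called under siMFN1 (0.0892% of all genes), siMFN2 (0.0167%), both siRNAs (0.173%) and siMAVS (0.0836%). The counts at an unadjusted p below 0.05 were 3, 0, 1 and 0 (7.89%, 0%, 2.63% and 0%, against 4.76%, 2.84%, 3.46% and 3.46% of all genes), and DESeq2 called 0 in each. Under siMFN1 the members' median was -0.12, compared with 0.01 for all genes, and 36 of 38 values were negative. ATP5PD, of the peripheral stalk, had the smallest p, at 69.3, 65.6 and 69.7 CPM with control siRNA and 58.8, 55.9 and 58.7 with siMFN1 (log2 difference -0.23, SE 0.09, edgeR adjusted p = 0.91). The groups did not overlap. In all, 18 members lay below the control range (9.19% of all genes) and 0 above it (7.39%).

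Libraries of SK-MEL-103 with the same replicate number deviated together for siMFN1 and its control. When only those 6 libraries were fitted with the replicate number as a block, 16 members were called lower and none (0) higher, with 9.77% of all genes lower and 8.64% higher. UQCR10 (-0.27, edgeR adjusted p = 0.0015), UQCR11 (-0.27), ATP5MC1 (-0.26), ATP5PD (-0.22) and COX6A1 (-0.22) were among them. With the block and all groups in the fit, 0 members were called. Under both siRNAs the block of 6 libraries called UQCR11 alone, lower by 0.33, where 4.31% of all genes were lower. That gene stood at 18.2, 18.5 and 17.2 CPM with control siRNA, 14.7, 13.4 and 14.5 with both siRNAs, and 14, 16.3 and 14.3 with siMFN1. Under siMFN2, 1 of 3 libraries carries no number and was left out. The block there rests on 2 pairs of libraries. It called UQCRH alone, higher by 0.23, where 2.06% of all genes were higher.

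For the remaining SK-MEL-103 comparisons, the medians were 0.07 under siMFN2, -0.04 under both siRNAs and 0.03 under siMAVS. The smallest p under siMFN2 belonged to UQCRH (0.17, edgeR adjusted p = 1) and under siMAVS to CYC1 (-0.17, edgeR adjusted p = 1). Members lying above the control range numbered 3, 0 and 0 (5%, 4.12% and 3.1% of all genes), and those below 0, 6 and 2 (7.38%, 8.26% and 7.05%). All 38 intervals lay within 1.5-fold under siMFN1, siMFN2 and both siRNAs, and 37 did under siMAVS. No member passed the test of a difference between the lines in its response to an siRNA. By edgeR's interaction test 0 of 38 were called for each of the 4 siRNAs, where 0.115%, 0.0239%, 0.129% and 0.0239% of all genes were for siMFN1, siMFN2, both and siMAVS. At an unadjusted p below 0.05 the counts were 2, 1, 5 and 5 in that order (5.26%, 2.63%, 13.2% and 13.2%, against 8.62%, 5.85%, 8.29% and 7.21% of all genes), and DESeq2 called 0 in each.

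**Figure D4:**
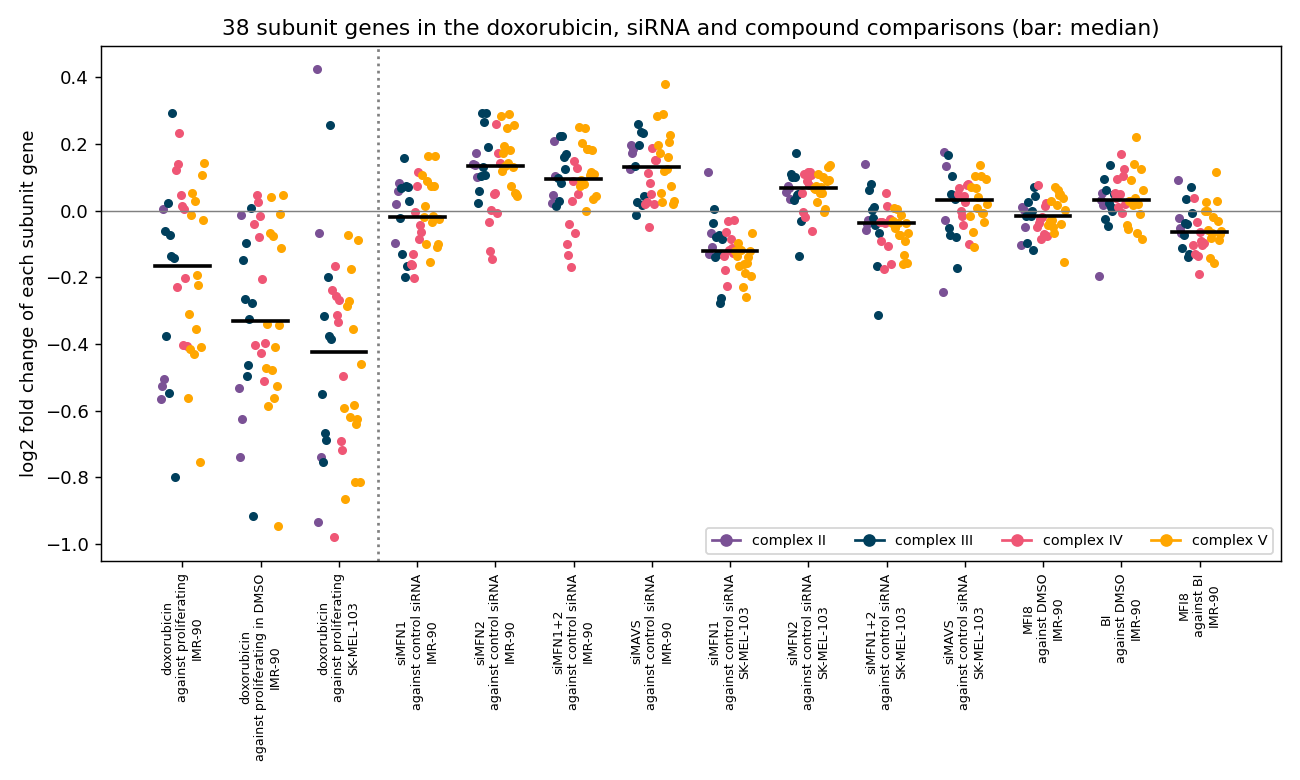
Log2 fold change of each of the 38 subunit genes (points) in the doxorubicin, siRNA and compound comparisons, with the median as a bar. The doxorubicin values reach -0.98, while those of the siRNA and compound comparisons stay between -0.31 and 0.38.

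MFI8 and BI, given to senescent IMR-90 cells at 20 and 10 µM, share the DMSO control libraries. By edgeR, 0 of 38 members were called under either compound and 0 between them, and 0% of all 19056 genes were. No member had an unadjusted p below 0.05 (0 of 38) in any of these comparisons, and DESeq2 called 0. Such a p was also rare over all genes, at 1.59% under MFI8, 0.666% under BI and 1.36% between them. Members ranged from -0.15 to 0.08 under MFI8 (median -0.02) and from -0.20 to 0.22 under BI (median 0.03). The doses differed, so their values stand side by side: the members summed to 3269 ± 372 CPM in DMSO, 3207 ± 201 with MFI8 and 3307 ± 282 with BI. By library the sums were 3058, 3699 and 3052 in DMSO, 3071, 3438 and 3112 with MFI8, and 3188, 3629 and 3104 with BI. Same-numbered libraries deviated together (correlations with DMSO of 0.784 to 0.913 for MFI8 and 0.777 to 0.932 for BI). The SDs include that shared deviation, and the p-values and intervals here come from a fit without pairing. With a replicate block and all groups, 0 members were called. For MFI8, ATP5MF had the smallest p (-0.15, edgeR adjusted p = 1), and for BI UQCRQ, a small subunit of complex III (0.14, edgeR adjusted p = 1). Every interval lay within 2-fold, and 37 of 38 under MFI8 and 36 under BI lay within 1.5-fold. Above the DMSO range lay 0 members under MFI8 and 1 under BI (2.92% and 1.65% of all genes), and 0 lay below it under either (2.57% and 1.79%).

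The partner subunits of complexes III to V that mitochondrial DNA encodes (MT-CYB of complex III, MT-CO1, MT-CO2 and MT-CO3 of complex IV, MT-ATP6 and MT-ATP8 of complex V) were measured in the same libraries. All 6 rose with doxorubicin in all 3 comparisons, with medians of 1.66, 1.71 and 1.43. In IMR-90 on day 7 their sum went from 5612 to 8645 CPM in proliferating libraries to 19541 to 25266 in treated ones, while the 34 nuclear members of the same complexes went from 3470 to 4221 CPM to 3059 to 3330. The ratio of the mitochondrial to the nuclear sum was 1.80 ± 0.604 in proliferating and 6.99 ± 0.791 in treated IMR-90 cells. It was 1.36 ± 0.215 and 6.48 ± 2.13 on day 9, and 0.914 ± 0.165 and 4.27 ± 0.429 in SK-MEL-103. Poly(A) selection captures mitochondrial transcripts by their short tails, so the ratio describes these libraries rather than molecules.

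Silencing both mitofusins lowered all 6 mitochondrially encoded partners in IMR-90 (median -2.77) and 5 of 6 in SK-MEL-103 (median -1.38). Of the nuclear members, edgeR called 0 of 38 in each line, DESeq2 called ATP5PB higher in IMR-90, and the block of 6 libraries called UQCR11 lower in SK-MEL-103. MT-CO1 fell by 2.95 in IMR-90 (SE 0.37, edgeR adjusted p = 0.0019) and by 1.43 in SK-MEL-103 (SE 0.16, edgeR adjusted p = 0.00017). The mitochondrial sum of IMR-90 was 1670 to 4636 CPM with both siRNAs, below the proliferating range, while the nuclear sum was 3285 to 3553. The ratio was thus 0.918 ± 0.412 in IMR-90 and 1.73 in SK-MEL-103. No mitochondrially encoded subunit was called (0 of 6, by edgeR) under siMFN1, siMFN2 or siMAVS in either line, and at an unadjusted p below 0.05 the count was 4 of 6 under siMFN2 in IMR-90, where the ratio was 3.39, and 0 in the others. Mitochondrial genes made up 4.18% of counts in control IMR-90 libraries and 0.736% with both siRNAs, and the part of that share in the scaling of the nuclear members was not tested.

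**Figure D5:**
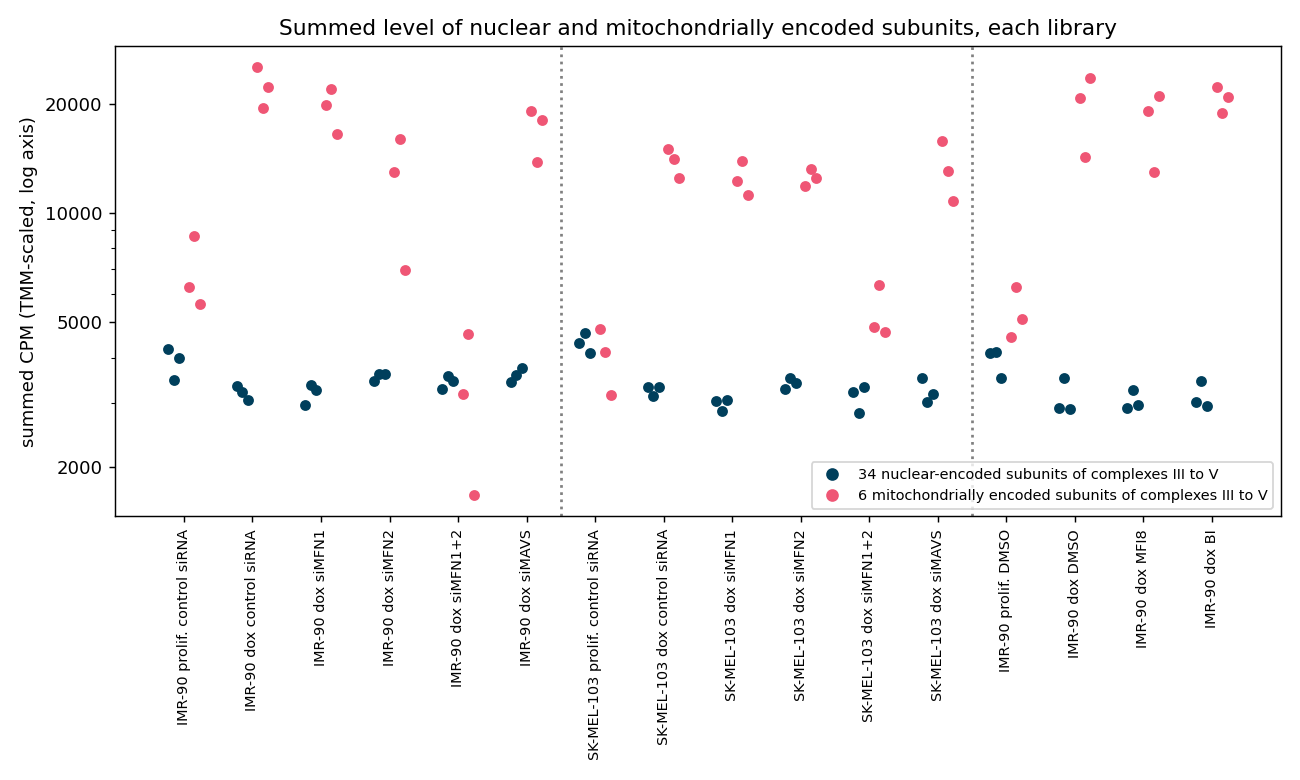
Summed level of 34 nuclear-encoded (dark) and 6 mitochondrially encoded (red) subunits of complexes III to V in each library (TMM-scaled CPM, log axis). The nuclear sums stay between 2820 and 4680 CPM, while the mitochondrial sums span 1670 to 25266 CPM and are low with both mitofusin siRNAs.

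Related gene groups give the setting of the members under doxorubicin. Of 37 nuclear-encoded complex I subunits, 7 were lower and 6 higher in IMR-90 on day 7, 10 and 3 on day 9, and 25 and 1 in SK-MEL-103, where NDUFAB1, the mitochondrial acyl carrier protein, fell by 0.88. Of 40 assembly factors of complexes II to V, 15 fell and 7 rose on day 7, 21 and 4 on day 9, and 17 and 5 in SK-MEL-103. SDHAF4, which assists the joining of SDHA and SDHB, rose in all 3 comparisons (1.02, 1.21 and 1.75). Of 13 transcriptional regulators, 7, 8 and 11 fell and 0 rose by edgeR. TFAM, the packaging and transcription factor of mitochondrial DNA, fell by 1.68 on day 7 and 1.66 on day 9 in IMR-90, and MYC by 1.70 in SK-MEL-103.

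Of 12 genes of ubiquinone synthesis and cytochrome c, 6, 7 and 5 fell and 1, 0 and 1 rose. COQ2, which joins the ring and the tail of ubiquinone, fell by 1.88, 1.96 and 1.40, and CYCS, cytochrome c itself, by 1.39 in SK-MEL-103. Among 13 other subunits and isoforms of complexes II to V, of which 8 were tested in each IMR-90 experiment and 7 in SK-MEL-103, 0, 4 and 4 fell and 1, 2 and 0 rose. The near-copy of UQCRH, UQCRHL, fell by 0.61 in IMR-90 on day 9 and by 0.90 in SK-MEL-103, and reads of the pair may be divided between them.

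Members with and without the NRF1 letters were set side by side as a description. On day 7, 4 of 9 with the letters and 6 of 21 without them were lower (medians -0.38 and -0.13). On day 9 the counts were 4 of 9 and 11 of 21 (medians -0.41 and -0.40), and in SK-MEL-103 6 of 9 and 18 of 21 (medians -0.38 and -0.46). For the ETS letters they were 3 of 9 and 7 of 21 (medians -0.143 and -0.203) on day 7. On day 9 they were 5 of 9 and 10 of 21 (-0.396 and -0.403), and in SK-MEL-103 5 of 9 and 19 of 21 (-0.355 and -0.460). For NRF1 the order of the medians was thus not the same in the 3 comparisons. For ETS the median with the letters was the less negative in all 3, by little on day 9, and this order was not tested. Of the members whose response to doxorubicin differed between the lines, SDHA, UQCR11 and UQCR10 carry the NRF1 letters. COX5A, COX7B, ATP5MG and COX6A1 do not, and CYC1, ATP5F1B and ATP5MF had no promoter entry. The carriers did not share a direction: the difference was 1.09 for SDHA, 0.49 for UQCR11 and -0.57 for UQCR10.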

How the data were processed

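The 48 libraries came from 16 groups of 3. The authors deposited 1 table of raw read counts per gene, with Ensembl identifiers, for all of them. The submitters' processing notes name Trim Galore 0.6.7, STAR 2.7.10a, featureCounts and GRCh38. The annotation release, the strand setting and the treatment of reads matching several places are not given in the sources used here. Per the labels' protocols, library preparation used poly(A) selection in a kit that keeps strand, and PCR ran for 10 cycles. Without molecular identifiers, reads are not independent molecules. Of 48898 identifiers, 48679 (99.55%) matched a symbol.

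Counts were tested with edgeR 4.0.16 in R 4.3.3 (filterByExpr, TMM, quasi-likelihood F test), fitted separately over the 18 libraries of each siRNA experiment and the 12 of the compound experiment. All 36 siRNA libraries entered the comparisons between lines. All genes were adjusted together by Benjamini-Hochberg in each of 21 comparisons, and a gene was called at an adjusted p below 0.05. Printed levels are CPM with TMM factors over all 48 libraries, given in the order of replicates 1 to 3. No pair of libraries of a group was a duplicate within counting noise (smallest chi-square per degree of freedom 11.1 over 48 pairs). Gene positions are those of GENCODE 29 on GRCh38, and stretches near start sites come from RefSeq. Counts were also simulated with 100 genes changed at each size. Of changes of 1 on the log2 scale, 46% were called for both mitofusin siRNAs in IMR-90, 80% in SK-MEL-103 and 47% for MFI8. The changed genes were drawn at random from expressed genes rather than from the members. These shares therefore do not give the recovery for the members.

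The members and the gene lists were chosen with earlier results of these data known. For naming members, the rule took among the called up to 5 of the highest and 5 of the lowest, at most 3 of a complex, otherwise the 2 with the smallest p. SDHA, SDHB, UQCRC1, CYC1, COX4I1, COX5B, ATP5F1A, ATP5F1B and the ATP5MC genes could be named whatever their values. Further members, including the rest of the differences between lines and of the small subunits, were named after their values were seen. From the other lists at most 2 highest and 2 lowest called genes are named. Same-numbered libraries are paired where all 3 correlations of their deviations exceed 0.1. This held for siMFN1, siMFN2 and both siRNAs in IMR-90, for siMFN1, both siRNAs and siMAVS in SK-MEL-103, and for the day 9 comparisons. It did not hold for siMAVS in IMR-90 or for doxorubicin on day 7 in either line. For siMFN2 in SK-MEL-103 only 2 pairs were numbered, so the rule could not be applied. Alternatives were other scalings, no filter on low counts, DESeq2 1.42.0, a replicate block, a term for the range of library identifiers and leaving out each library.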

Additional observations from a re-analysis of the deposited data

Results flagged for a closer look

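The response to doxorubicin differed between the lines for 10 members by the interaction test (SK-MEL-103 minus IMR-90, log2, 3 libraries a group). It was more positive in SK-MEL-103 for SDHA (1.09), which was lower with treatment in 3 of 3 IMR-90 libraries and higher in 3 of 3 SK-MEL-103 libraries, and for CYC1 (0.51) and UQCR11 (0.49). The rise of SDHA in SK-MEL-103 alone missed the threshold, and its level is uncertain because 3 named copies held 220% of its counts. The response was more negative for ATP5MF (-0.69), COX5A (-0.66), COX7B (-0.60), UQCR10 (-0.57), ATP5MG (-0.51), ATP5F1B (-0.46) and COX6A1 (-0.39). UQCR10 was called higher in IMR-90 on day 7 (0.29) and lower in SK-MEL-103 (-0.38), though not in IMR-90 on day 9 (0.01). Among these calls, that of UQCR11 was lost under 11 of 17 other settings, ATP5MG under 7, UQCR10 under 6, CYC1 under 3 and SDHA under 0. Line and experiment cannot be told apart in any of them.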

How the results depend on the processing

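Over all comparisons, 264 of 278 recomputed counts of called members stayed within 1.5 times the reported count. Counts of 0 that stayed 0 are among the 264, including every leave-one-out count of the siRNA and compound comparisons. The total therefore says little about the comparisons that had calls. Of 526 recomputed values of named members, 0 reversed, while 71 lost the call. With a replicate block and only the compared groups, a fit chosen after seeing the data, 1 member (CYC1) was called in IMR-90 on day 7, 20 for doxorubicin in SK-MEL-103, 16 under siMFN1 in SK-MEL-103, and 1 each under siMFN2 (UQCRH) and both siRNAs (UQCR11) there. With the replicate block and all groups, the counts were 15 on day 7, 22 on day 9, 33 for doxorubicin in SK-MEL-103 and 11 for the difference between lines, and 0 for each siRNA and compound comparison. On day 7 and for doxorubicin in SK-MEL-103 the numbers did not pair the libraries. A term for the range of library identifiers in IMR-90 gave 15 calls on day 7 and 0 for each siRNA. DESeq2 called 1 member (ATP5PB) under siMFN2, both siRNAs and siMAVS in IMR-90. Without the low-count filter the doxorubicin difference had 1 call, the proliferating lines 10 and the treated lines 14, where far more genes entered the adjustment. Leaving out 1 library gave 10 to 14 calls on day 7, 14 to 21 on day 9, 24 to 31 in SK-MEL-103, 11 to 14 between proliferating and 18 to 20 between treated lines, and 0 for each siRNA and compound comparison. For the doxorubicin difference the range was 5 to 10. The shares of all genes called under these settings are not given in this section. The counts alone therefore do not show whether members moved more than other genes. Where no value shows otherwise, the cause was not tested. Replicates 3 were the shallowest, at 15206115 to 31127306 counts.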
